A study of Mus musculus with 6 samples.

Results

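The immunity-related GTPases (IRGs) and guanylate-binding proteins (GBPs) are interferon-inducible GTPases of cell-autonomous defence. They were examined in normal duodenum of Apc+/- mice (n = 3) and of Apc+/-Atg7-/- mice (n = 3), on a C57Bl6 background, with 1 Affymetrix whole-transcript array per sample. Members were the 10 genes Irgm1, Irgm2, Igtp, Iigp1, Tgtp1, Gbp2, Gbp3, Gbp5, Gbp6 and Gbp7, chosen by name. The choice was made with earlier results of these data known. A probe set, called a row here, entered when the platform annotation gave it a member's symbol, and 19938 genes in all had a row that named no other gene. Of the 10 members, 5 were among them (Irgm1, Iigp1, Gbp3, Gbp5 and Gbp7). The other 5 were found only on rows shared with relatives: 1 row for Irgm2 with Igtp, 2 rows for Tgtp1 with Tgtp2, 1 row for Gbp2 with Gbp2b, and 1 row for Gbp6 with Gbp4, Gbp8, Gbp9, Gbp10 and Gbp11. A shared row cannot say which of its genes carried the signal. Both genotypes carried the Apc+/- allele, so the genotypes differed in Atg7, the E1-like enzyme that conjugates ubiquitin-like proteins in autophagy. The labels name no Cre driver, deleted exon, age, sex or animal, so which cells lost Atg7 is not known here. They number no animals, so each p-value covers the spread of these 3 against 3 samples. The knockout arrays are not all from 1 animal, since 1 of them came from a male.

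IRGs and GBPs are made in many cell types, the gut epithelium included, when interferon binds its receptor. Interferon gamma acts through Jak kinases on genes with GAS sites, and type I and type III interferons act on genes with ISRE sites. The proteins gather on vacuoles that hold bacteria or parasites and break them open or mark them for destruction. The Irgm proteins (Irgm1, Irgm2 and Igtp, which is also called Irgm3) act as regulators that keep the effector IRGs, such as Iigp1 and Tgtp1, inactive on the cell's own membranes. The conjugation machinery of autophagy, which needs Atg7, is required for these GTPases to be placed correctly.

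The 6 arrays had medians of 6.43 to 6.56 (log2). Xist stood at 4.58 and the Y-linked Eif2s3y at 8.44 on Apc+/-Atg7-/- replicate 1, while Xist stood at 10.1 to 10.3 on the other 5 arrays, which marks that replicate as the male one, left out in turn below. The epithelial genes Vil1 (11.35 to 11.67) and Fabp2 (12.78 to 13.07) and the duodenal transcription factor Pdx1 (7.47 to 8.505) gave signal on every array, and liver Alb stayed at 5.04 to 5.20 (log2). Other duodenal genes were dimmer or uneven, with Cybrd1 at 6.53 to 7.27 and Slc40a1 at 6.04 to 8.24. The enterocyte gene Lct was lowest, at 8.48, on Apc+/-Atg7-/- replicate 3. Ileal Fabp6 differed by 0.34 (SE 0.11, limma adjusted p = 0.819), and ileal Slc10a2 by 0.01 (SE 0.13). Whether the arrays sampled the same stretch of gut was not tested. Atg7 lay between 7.05 and 7.27 in Apc+/- and between 6.46 and 6.78 in Apc+/-Atg7-/- duodenum, so all 3 knockout arrays lay below all 3 others. Its difference of -0.53 (SE 0.11) did not pass over all genes (limma adjusted p = 0.242). Which probes lie in the deleted part is not given, and probes outside the deleted part would still find transcript.

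The promoters of the members are shown first, because interferon acts on these genes through short DNA elements near the start of transcription. RefSeq promoter windows of GRCm38.p6, each running from 250 bases before to 50 bases after a start site, were matched by symbol for 8 of the 10 members, while Iigp1 and Gbp6 had none. Both strands were searched for the core of the ISRE, written here as GAAA, any 2 bases, then GAAA again, and for the core of the GAS, TTCNNNGAA, which reads the same on both strands. On the other strand the ISRE core reads TTTC, any 2 bases, TTTC. An ISRE core was found in 8 of 8 members and a GAS core in 5 of 8, against 3.44% and 8.30% of all 32851 windows. Irgm1 and Gbp3 each held overlapping ISRE cores, 3 GAAA units in a row with 2 bases between units, a run found in 38 windows (0.116%). The stretches just before the start sites follow, 5′ to 3′ in the direction of the gene, with the cores in capitals.
Irgm1: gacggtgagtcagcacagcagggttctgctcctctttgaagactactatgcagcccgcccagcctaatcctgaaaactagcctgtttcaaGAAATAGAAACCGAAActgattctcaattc
Irgm2: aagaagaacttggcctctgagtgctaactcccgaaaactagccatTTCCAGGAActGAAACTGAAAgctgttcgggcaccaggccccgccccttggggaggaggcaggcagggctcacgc
Igtp: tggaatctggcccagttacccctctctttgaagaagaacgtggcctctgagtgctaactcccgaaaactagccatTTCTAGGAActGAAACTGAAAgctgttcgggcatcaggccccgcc
Tgtp1: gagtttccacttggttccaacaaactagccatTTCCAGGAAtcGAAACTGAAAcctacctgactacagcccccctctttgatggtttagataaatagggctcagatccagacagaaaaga
Gbp2: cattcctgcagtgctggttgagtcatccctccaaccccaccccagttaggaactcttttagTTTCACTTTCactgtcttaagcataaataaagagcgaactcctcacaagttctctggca
Gbp3: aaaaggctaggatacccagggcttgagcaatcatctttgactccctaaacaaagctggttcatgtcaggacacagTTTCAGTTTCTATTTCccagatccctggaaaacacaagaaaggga
Gbp5: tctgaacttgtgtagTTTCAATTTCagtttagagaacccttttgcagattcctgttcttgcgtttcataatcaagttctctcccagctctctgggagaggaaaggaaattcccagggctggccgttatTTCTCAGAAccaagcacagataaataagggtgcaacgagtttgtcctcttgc
Gbp7: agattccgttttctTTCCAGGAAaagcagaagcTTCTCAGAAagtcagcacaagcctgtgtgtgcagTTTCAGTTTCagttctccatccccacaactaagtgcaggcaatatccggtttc

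The printed stretches span 120 bases, or 180 for Gbp5, and end at the last base before the start site. For the IRGs they lie at chr11:48871421-48871540 (minus strand) for Irgm1, chr11:58214857-58214976 (plus strand) for Irgm2, chr11:58199436-58199555 (plus strand) for Igtp and chr11:48992247-48992366 (minus strand) for Tgtp1. For the GBPs they lie at chr3:142620543-142620662 (plus strand) for Gbp2, chr3:142559924-142560043 (plus strand) for Gbp3, chr3:142496754-142496933 (plus strand) for Gbp5 and chr3:142530216-142530335 (plus strand) for Gbp7. A further GAS core of Gbp5 begins 245 bases before its start, outside the stretch. Gbp3 has a second RefSeq window, without either core. Irgm2 and Igtp, neighbours on chromosome 11, share a run of 61 identical bases in their windows, while the longest run shared by Irgm1 with another member was 11 bases. Irgm2, Igtp and Tgtp1 have the same arrangement, with a GAS core followed after a gap of 2 bases by an ISRE core. In Irgm1 the ISRE cores begin 30 and 24 bases before the start and no GAS core was found. Of the differences given below, that of Gbp5, which holds both kinds, was 0.06 (log2), and that of Irgm1, which holds no GAS core, was 1.0. Gbp5 was dim, at 5.56 to 6.02 and below the median of every array, so its flat value may be background. Irgm2, Igtp, Tgtp1 and Gbp2 were read only on shared rows. Whether the cores relate to the members' differences was not tested. Of 607 measured genes with an ISRE core in a window, 4 rose (0.659%), against 12 of 15614 measured genes with a window (0.077%). Irgm1 itself is counted in both. The median difference was -0.006 for the 607 genes and -0.016 for the 15614. Of 20 measured genes with the longer run, 2 rose, Irgm1 and the oligoadenylate synthetase Oas1a, and the median difference of the 20 was 0.12. A match is a description of letters and does not show that a factor binds there.

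**Figure D1:**
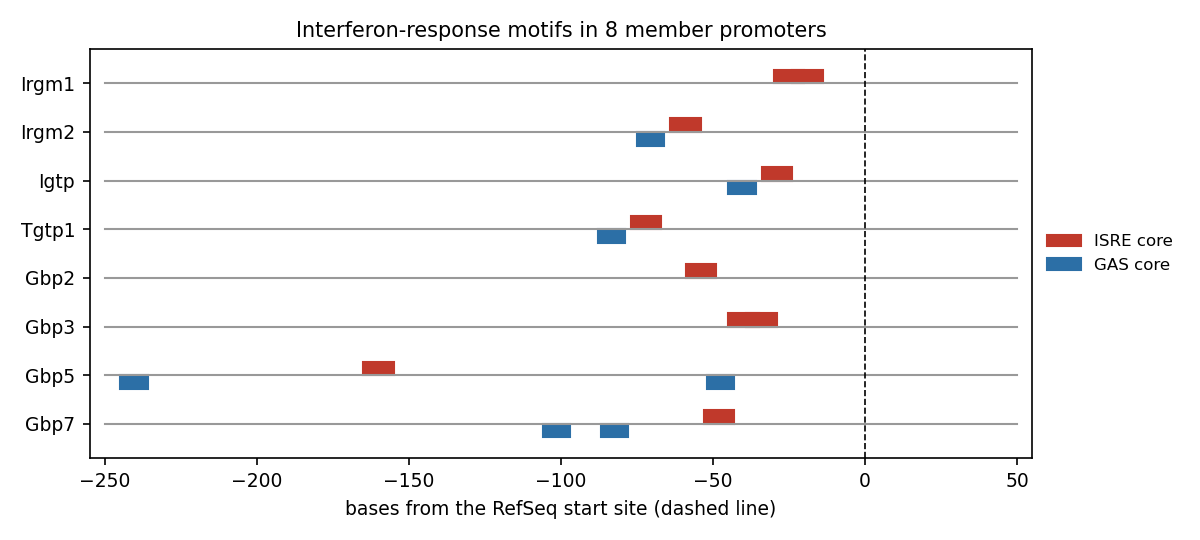
Positions of ISRE cores (red, above the line) and GAS cores (blue, below the line) in the first RefSeq promoter window of 8 members, in bases from the start site at the dashed line. Irgm1, Gbp2 and Gbp3 have no GAS core, and the ISRE core of Gbp5 lies 165 bases before its start, farther out than in the other 7.

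Irgm1 passed the test over all genes. The regulator of the IRG system rose 2.0-fold in Apc+/-Atg7-/- duodenum. Its signal was 7.60, 7.26 and 7.26 in Apc+/- replicates 1, 2 and 3 and 8.41, 8.23 and 8.48 in Apc+/-Atg7-/- replicates 1, 2 and 3 (log2). The groups were apart by more than the width of either, with means of 7.37 ± 0.20 and 8.37 ± 0.13 (SD, n = 3). The log2 difference was 1.0 (SE 0.12, 95% interval 0.73 to 1.26, limma adjusted p = 0.0137 over 19938 genes). Of all genes in that fit, 14 (0.0702%) were called higher and 8 (0.0401%) lower, 22 together (0.11%), at the threshold of 0.05. The split was 0 higher and 2 lower without the male array and 6 higher and 9 lower without Apc+/- replicate 3. Irgm1 was the 1 of the 5 members with a row of their own to pass. With 1 array left out at a time the difference stayed between 0.94 and 1.11. Irgm1 no longer passed when Apc+/- replicate 2 (adjusted p = 0.0724), Apc+/- replicate 3 (0.0803) or the male array (0.0755) was left out, nor without Apc+/-Atg7-/- replicate 3 (0.0695). It passed without Apc+/- replicate 1 (0.0118) or Apc+/-Atg7-/- replicate 2 (0.031). With a linear model that does not moderate variances the adjusted p was 0.743.

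The other Irgm genes, Irgm2 and Igtp, were read on 1 shared row. Its signal was 9.84, 9.695 and 9.79 in Apc+/- and 10.19, 10.245 and 10.33 in Apc+/-Atg7-/- duodenum (log2, replicates 1, 2 and 3). All 3 knockout arrays lay above all 3 others, and both SDs were 0.07. The difference of 0.48 (SE 0.09, 95% interval 0.28 to 0.67), 1.39-fold, did not pass in a fit over all 28853 probe sets (limma adjusted p = 0.152). It passed with the trend and robust options of eBayes (adjusted p = 0.0366). Which of the 2 genes differed, or whether both did, the row cannot show.

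The effector IRGs were also higher without passing. Iigp1, which coats and disrupts parasite vacuoles, gave 8.504, 7.95 and 8.44 in Apc+/- and 8.74, 8.91 and 8.98 in Apc+/-Atg7-/- duodenum (log2, replicates 1, 2 and 3). The groups did not overlap, and Apc+/- replicate 2 was the lowest array. The difference was 0.58 (SE 0.15, 95% interval 0.25 to 0.91, adjusted p = 0.504), and 0.405 without that replicate. Tgtp1 and Tgtp2, near-identical effector genes, share 2 rows that may hold the same transcripts. On the first row the signal was 8.78, 8.49 and 8.80 against 9.075, 9.09 and 9.38, and on the second 9.01, 8.69 and 8.99 against 9.26, 9.28 and 9.62. The order of the arrays was nearly the same on both rows, and neither row's groups overlapped. The differences were 0.49 on each row (SE 0.12 and 0.13, adjusted p = 0.544 and 0.632).

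Among the GBPs with a row of their own, Gbp7 differed most. Gbp7, which acts in defence of macrophages against bacteria, gave 7.73, 7.26 and 7.67 in Apc+/- and 8.01, 7.998 and 8.18 in Apc+/-Atg7-/- duodenum (log2, replicates 1, 2 and 3). The groups did not overlap. The difference of 0.51 (SE 0.13, 95% interval 0.22 to 0.80, 1.42-fold) did not pass (adjusted p = 0.517) and was 0.36 without Apc+/- replicate 2. Gbp3 gave 7.09, 6.94 and 6.998 against 7.48, 6.95 and 7.39. Its knockout replicate 2 lay within the Apc+/- range, so the groups overlapped, and the difference was 0.27 (SE 0.13, 95% interval -0.04 to 0.57, adjusted p = 0.95). It was 0.43 without that replicate and 0.16 without the male array.

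Gbp5, which promotes inflammasome assembly, showed the smallest difference. Its signal was 5.97, 5.56 and 6.02 in Apc+/- and 5.92, 5.94 and 5.87 in Apc+/-Atg7-/- duodenum (log2, replicates 1, 2 and 3). The 3 knockout arrays lay inside the Apc+/- range. The difference of 0.06 (SE 0.12, adjusted p = 0.994) has a 95% interval of -0.22 to 0.34, which leaves out the value of Irgm1 but not those of the rows for Gbp3 and Gbp2. The sign turned without Apc+/- replicate 2, to -0.09.

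The remaining GBP members were read on shared rows. The row of Gbp2, which attacks bacterial and parasite vacuoles, and Gbp2b gave 7.73, 7.39 and 7.63 against 7.60, 7.83 and 7.98, with overlapping groups and a difference of 0.22 (SE 0.13, adjusted p = 0.986). It was 0.12 without Apc+/- replicate 2, 0.13 without knockout replicate 3 and 0.32 without the male array. A separate row of Gbp2b alone differed by -0.01 (SE 0.12). The row that names Gbp6 and 5 other genes of the chromosome 5 cluster gave 8.36, 8.03 and 8.27 against 8.94, 8.48 and 8.98. Its groups did not overlap, and its difference was 0.58 (SE 0.15, 95% interval 0.25 to 0.92, adjusted p = 0.561). Of the 5 genes it names besides Gbp6, 4 have a row of their own, with smaller differences there. Gbp4 stood at 0.31 (SE 0.18), Gbp9 at 0.22 (SE 0.10), Gbp8 at 0.16 (SE 0.09) and Gbp11 at 0.07 (SE 0.10), while Gbp10 has none. None of these 4 passed (limma adjusted p from 0.95 to 0.991). Without Apc+/- replicate 2, Gbp4 stood at 0.12 and Gbp8 at 0.095, and Gbp4 stood at 0.47 without Apc+/- replicate 1.

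**Figure D2:**
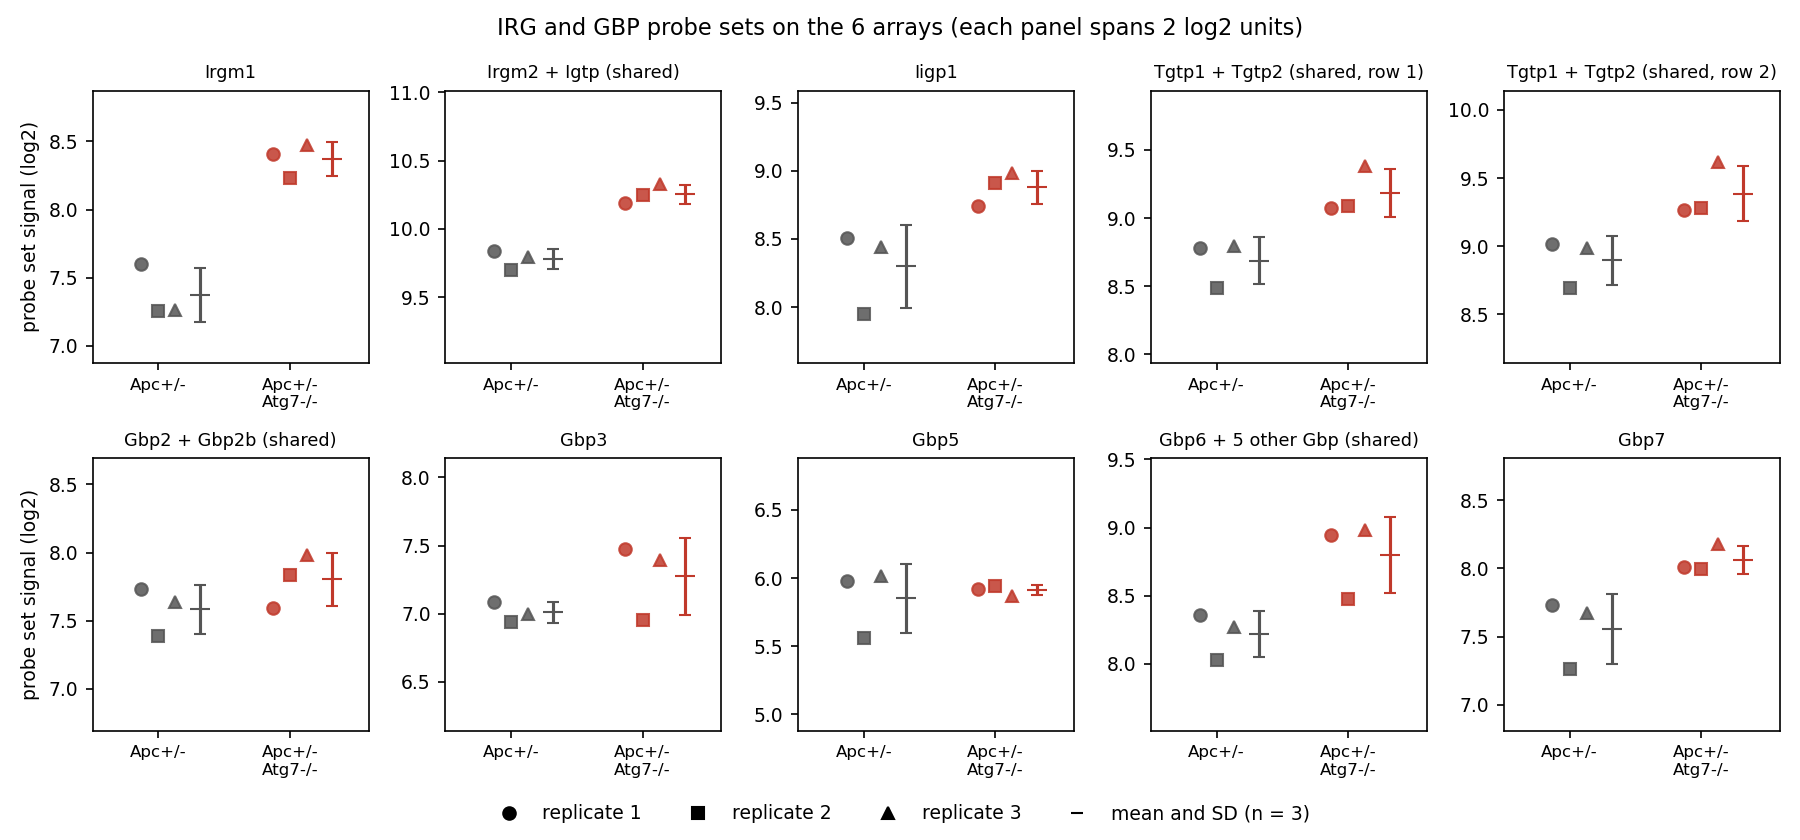
Signal (log2) of the 10 member rows on the 6 arrays, with Apc+/- in grey and Apc+/-Atg7-/- in red, symbols for replicates and bars for mean and SD (n = 3). In 7 of 10 rows, both Tgtp rows among them, all knockout arrays lie above all Apc+/- arrays. The groups overlap for Gbp5, Gbp3 and the Gbp2 row.

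Counted over rows, 3 of 5 own rows and 4 of 5 shared rows had all knockout arrays above all others, against 4.81% of genes and 5.07% of probe sets, and none had all below, against 5.23% and 4.94%. At an unadjusted p under 0.05 the counts were the same, 3 of 5 and 4 of 5, against 2.38% of genes and 2.32% of probe sets in that direction, and 2.73% and 2.52% in the other. Both counts of 4 shared rows include the 2 Tgtp rows, which may hold the same transcripts. Past an adjusted p of 0.05 there were 1 of 5 own rows and, by limma, 0 of 5 shared rows, against 0.0702% of genes and 0.0797% of probe sets (0.135% in either direction, 0.0555% lower). With the brighter of the Tgtp rows kept, 9 of 9 rows were higher, and their median difference was 0.49 beside -0.02 over all genes and -0.01 over all probe sets. The rows are not replicates of the genotype, since all come from the same 6 arrays. Because the members were chosen with earlier results of these data known, these shares are a description. All 10 rows passed a filter at the 25th percentile of mean signal, and Gbp5 alone failed one at the 50th.

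The arrays within a genotype also differed in step. Apc+/- replicate 2 was the lowest of the 6 arrays in 9 of 9 rows, while it was the lowest of the 6 for 2936 of 19938 genes. Apc+/-Atg7-/- replicate 3 was the highest knockout array in 7 of 9 rows, against 38.9% of all genes. Averaged over the 9 rows after each was centred on its mean, the arrays stood at -0.09, -0.43 and -0.18 in Apc+/- and at 0.21, 0.13 and 0.35 in Apc+/-Atg7-/- duodenum (log2, replicates 1, 2 and 3). The 4 IRG rows stood at -0.16, -0.51 and -0.28 against 0.25, 0.26 and 0.45, a difference of 0.64. The 5 GBP rows stood at -0.03, -0.37 and -0.09 against 0.18, 0.03 and 0.27, a difference of 0.33. In both families the genotypes did not overlap, and the gap between the nearest arrays of the GBP rows was narrow.

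Irgm1 was set beside the other members with their own row after its difference was seen to be the largest of the member rows, so the gaps are a description. An exact two-sided permutation test gave p = 0.1 for each gap, the smallest value that 3 against 3 samples allow, and nothing is read from it. The difference of Irgm1 exceeded that of Gbp5 by 0.94 (SE 0.17), of Gbp3 by 0.73 (SE 0.13), of Gbp7 by 0.49 (SE 0.13) and of Iigp1 by 0.42 (SE 0.17).

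**Figure D3:**
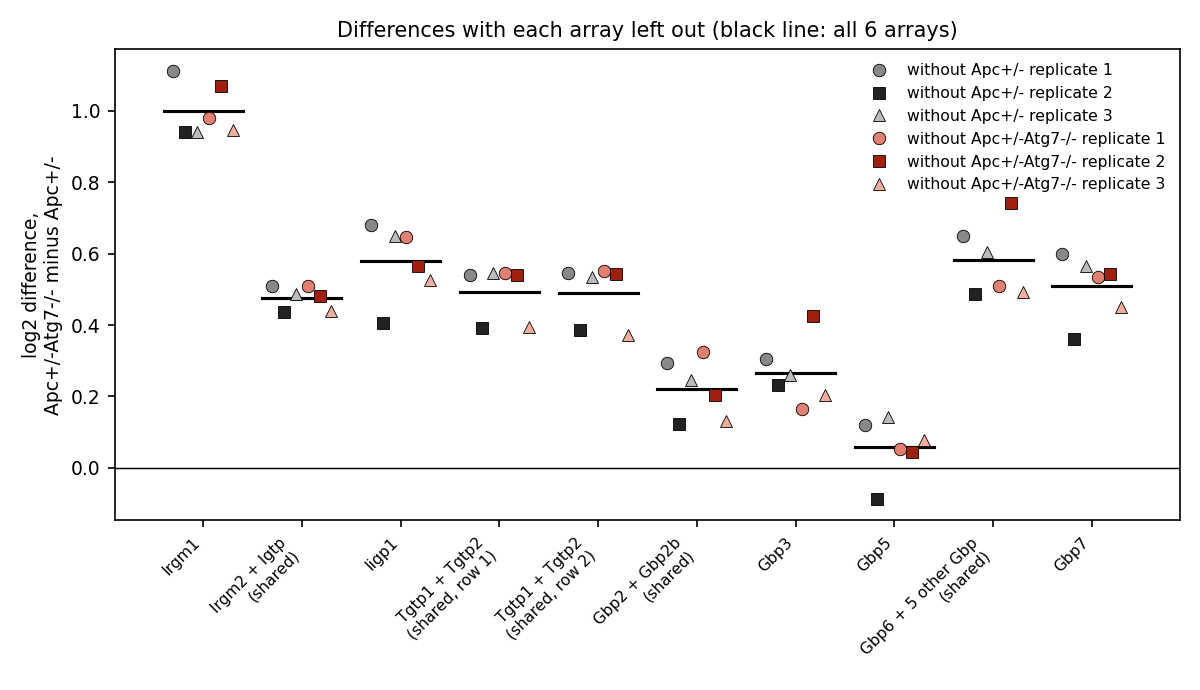
Log2 difference of each member row with 1 array left out (symbols) and with all 6 arrays (black line). Irgm1 stays between 0.94 and 1.11, and Gbp5 is the row that crosses 0, at -0.09 without Apc+/- replicate 2.

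Relatives outside the 10 members varied. Of 18 further IRG, GBP and very large interferon-inducible GTPase genes, 11 had a row of their own. By limma 0 of the 11 passed, 8 were higher and 3 lower, and the median difference was 0.13. At an unadjusted p under 0.05, 2 were higher and 0 lower. Gm12250, the IRG also known as Irgb10, gave 8.42, 8.31 and 7.997 against 8.77, 8.96 and 9.15, without overlap, and a difference of 0.72 (SE 0.13, adjusted p = 0.17). Gm12185, a neighbour of Irgm1 and Tgtp1 on chromosome 11, gave 5.51, 5.41 and 5.47 against 6.13, 5.92 and 5.93, a difference of 0.53 (SE 0.09, adjusted p = 0.146). The chromosome 18 relatives of Iigp1 differed from it in value, with Gm4951 at 0.13 (SE 0.13) and Gm4841 at -0.14 (SE 0.19), and that difference was not tested. Irgq and Irgc1, the IRG relatives on chromosome 7, stood at 0.06 (SE 0.11) and -0.12 (SE 0.11). The 2 rows shared by 9930111J21Rik1 and 9930111J21Rik2 stood at 0.33 (SE 0.11) and 0.23 (SE 0.12), and 3 rows that name Gvin1, the very large GTPase, with other genes stood at 0.09, 0.06 and 0.12. None of these 5 rows passed by limma (adjusted p from 0.91 to 0.998).

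**Figure D4:**
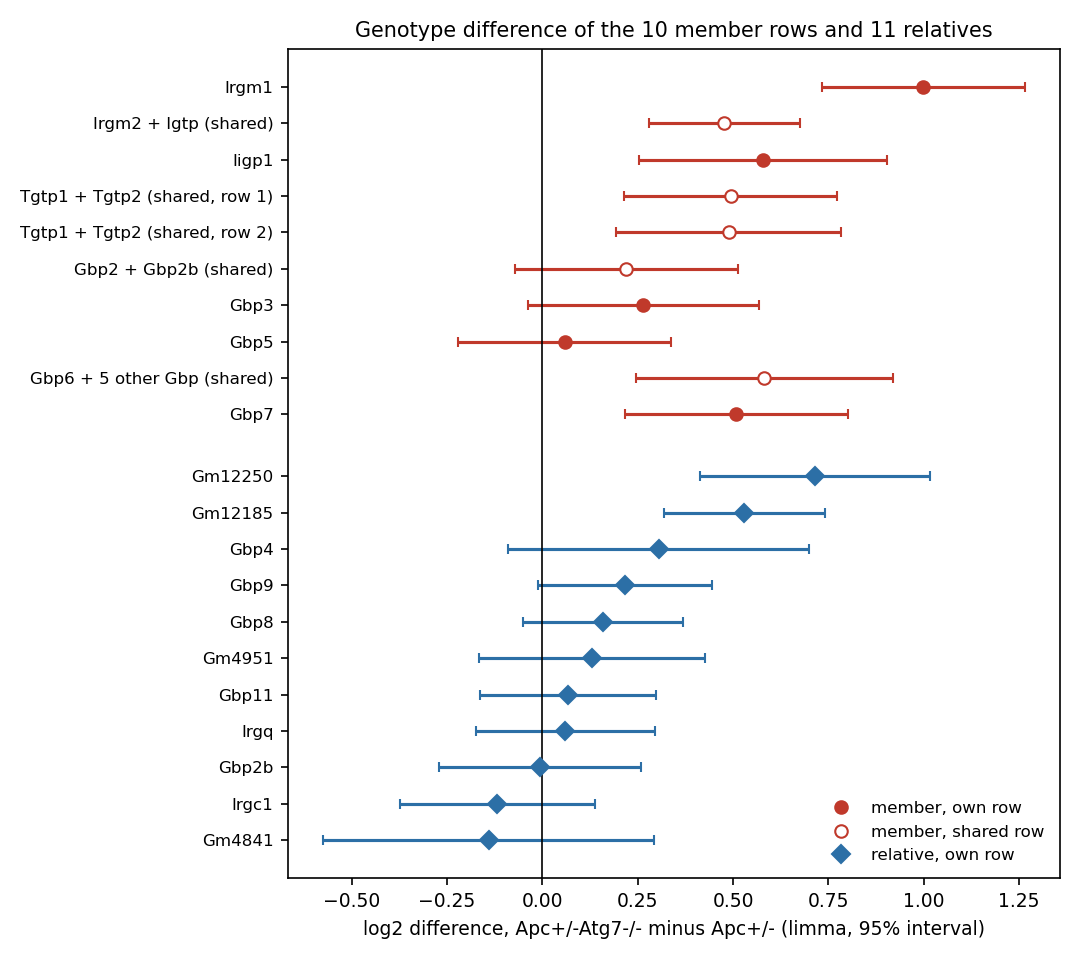
Log2 difference (Apc+/-Atg7-/- minus Apc+/-) with limma's 95% interval for the 10 member rows (red, open where shared) and 11 relatives with a row of their own (blue). Irgm1 lies farthest to the right at 1.0, and Gm12250 is the highest relative at 0.72.

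No measured gene on the list of interferons and interferon gamma inducers passed as higher. The list held no interferon alpha gene. Ifng, the ligand of the gamma pathway, gave 6.09, 6.32 and 6.34 in Apc+/- and 6.13, 6.37 and 6.39 in Apc+/-Atg7-/- duodenum (log2, replicates 1, 2 and 3), a difference of 0.04 (SE 0.11, 95% interval -0.20 to 0.29). With 1 array left out it ran from -0.04 to 0.13. Ifng lay below the median of every array, and without detection calls a flat value there may be background. Of 7 measured ligand genes, by limma 0 passed, 3 were higher and 4 lower, with a median of -0.04, and 1 was lower at an unadjusted p under 0.05. That gene was Il18, an inducer of interferon gamma made by epithelium, with 9.59, 9.21 and 9.69 against 8.90, 9.34 and 7.91. Its groups overlapped, its difference of -0.77 (SE 0.30, adjusted p = 0.924) was carried mostly by knockout replicate 3, and it was -0.37 without that array. Il12a stood at -0.21 (SE 0.14), or between -0.38 and -0.10 with 1 array left out.

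Receptor and signalling genes went both ways. Of 20 measured, by limma 0 passed, 10 were higher and 10 lower, with a median of -0.001, and 3 were higher and 1 lower at an unadjusted p under 0.05. The interferon gamma receptor chains Ifngr1 and Ifngr2 stood at 0.00 (SE 0.10) and -0.26 (SE 0.13), and Ifngr2 ran from -0.39 without the male array to -0.14 without knockout replicate 3. Irf1, the gamma-induced factor that drives GBP transcription, stood at 0.12 (SE 0.09), and Irf9 stood at 0.10 (SE 0.11). Irf1 was 0.06 without Apc+/- replicate 2, and Irf9 was 0.0087 without Apc+/- replicate 3. Usp18, an interferon-induced brake on type I signalling, gave 8.25, 8.55 and 8.02 against 9.03 on each of the 3 knockout arrays, a difference of 0.76 (SE 0.13, adjusted p = 0.112). It passed without Apc+/- replicate 2 (0.90, adjusted p = 0.0371) and with the trend and robust options of eBayes (adjusted p = 0.0345). Stat2, which acts in type I and type III signalling, gave 8.11, 8.06 and 8.01 against 8.46, 8.47 and 8.51, a difference of 0.42 (SE 0.08, adjusted p = 0.226). The groups of both genes were apart.

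Other targets of interferon gamma lay mostly above 0 without passing. Of 22 measured, by limma 0 passed, 18 were higher and 4 lower, with a median of 0.16, and 5 were higher and 1 lower at an unadjusted p under 0.05. Over all 19938 genes 8611 were higher, and 2.38% were higher and 2.73% lower at that unadjusted p. Cxcl10 and Cxcl11, ligands of the lymphocyte receptor Cxcr3, stood at 0.51 (SE 0.15, adjusted p = 0.696) and 0.32 (SE 0.09, adjusted p = 0.652). Both had all knockout arrays above all others, and Cxcl10 was 0.32 without Apc+/- replicate 2. That replicate was the lowest of the 6 arrays for 7 of these 22 genes, and Apc+/- replicate 3 was the lowest for another 7.

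Genes of autophagy conjugation and of vacuole targeting had a median close to 0. Of 17 measured, by limma 0 passed, 8 were higher and 9 lower, with a median of -0.008, and at an unadjusted p under 0.05 there were 0 higher and 3 lower, 1 of which was Atg7 itself. Gabarap, which belongs to the Atg8 proteins that Atg7 activates and that help place IRGs and GBPs, gave 11.41, 11.26 and 11.23 against 11.09, 11.08 and 10.87, a difference of -0.29 (SE 0.10, adjusted p = 0.857). Of 10 inflammasome genes, by limma 0 passed, 4 were higher and 6 lower, and 1 was higher at an unadjusted p under 0.05. That gene was Aim2, a DNA sensor, with overlapping groups and a difference of 0.53 (SE 0.21, adjusted p = 0.933), or 0.32 without knockout replicate 3. Casp1, the inflammasome protease, stood at 0.19 (SE 0.11).

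**Figure D5:**
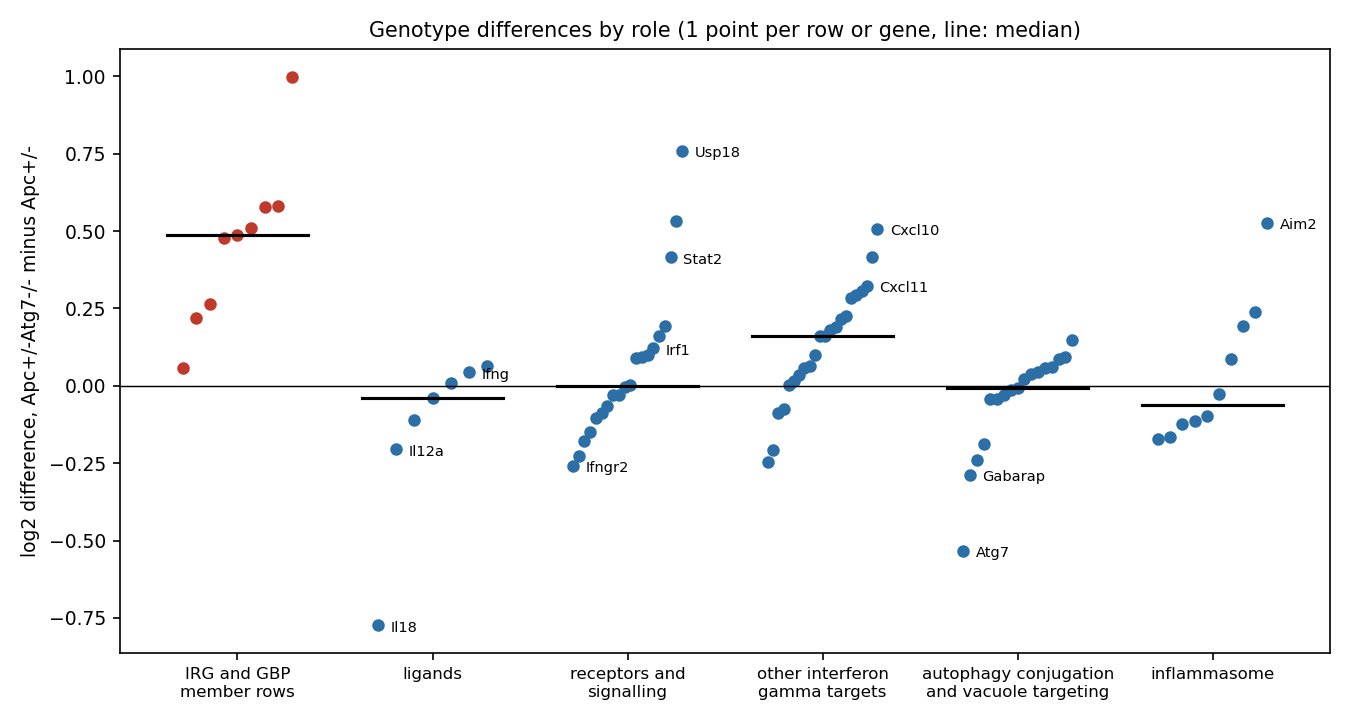
Log2 differences of the 9 member rows (red) and of the genes of 5 lists ordered by role (blue), with each list's median as a line. The member rows have a median of 0.49, other interferon gamma targets 0.16, and ligands, receptors, conjugation and inflammasome genes lie around 0.

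In whole duodenum, a change in the number of cells that make a transcript and a change in RNA per cell cannot be told apart. No marker of T, NK, macrophage or dendritic cells, which also make IRGs and GBPs, passed as higher. Of 14 measured T and NK cell genes 3 were higher and 11 lower, and by limma 0 passed, also at an unadjusted p under 0.05. Their mean signal was 7.59 to 7.90 in Apc+/- and 7.51 to 7.67 in Apc+/-Atg7-/- arrays (log2). Of 9 macrophage and dendritic cell genes 1 was higher and 8 lower, with a mean signal of 7.01 to 7.23 against 6.96 to 7.185. On Apc+/- replicate 2, the lowest array for the members, both means lay within or at the edge of the other arrays' range, at 7.61 and 7.01. Other cell types stood out on that array. Its B and plasma cell mean was 7.95, against 7.46 to 7.61 on the other arrays, and its smooth muscle mean was the highest, at 9.055. The B cell gene Ms4a1 stood at 6.45 there and at 4.74 to 4.85 elsewhere. All 3 Paneth cell markers were lower and 1 of them fell, with a mean signal of 10.3 to 10.67 in Apc+/- against 9.33 to 9.73 in Apc+/-Atg7-/- arrays. The 5 smooth muscle and 5 B and plasma cell markers were lower without passing. At an unadjusted p under 0.05, by limma, 3 Paneth cell markers and 1 smooth muscle marker were lower. The latter was Des, at -0.49 (SE 0.19), and 0 B and plasma cell markers were lower at that p. Of 7 enterocyte markers 1 was higher and 6 lower, of 5 endothelial markers 2 were higher, and of 4 pancreatic acinar markers 2 were higher, and by limma 0 of these passed, with 1 enterocyte marker lower at an unadjusted p under 0.05. The part of cell make-up in the differences of the members was not tested.

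The genes whose pattern over the 6 arrays lay nearest to the mean pattern of the 9 member rows were ranked by a distance. The measure was the root mean square distance between centred profiles, over 18705 named genes. Nipal2 (0.052), Chek1 (0.056), Rnd3 (0.058), Psmd7 (0.060) and Armc10 (0.061) were the nearest (distance in log2 units). Gbp7 itself lay at 0.055, Iigp1 at 0.12, Gbp3 at 0.18, Gbp5 at 0.23 and Irgm1 at 0.28. Each member's own row is part of the mean pattern, so its distance cannot be compared directly with those of other genes. The 5 nearest genes differed by 0.40 to 0.48 and did not pass (limma adjusted p from 0.423 to 0.809). They were picked from many genes over 6 arrays, and nothing is read from them about shared control.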

How the data were processed

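Total RNA from 6 samples of duodenum was hybridised to 1 array each, per the labels' protocols. The authors deposited 1 table of 28853 probe sets, taken as log2 values after RMA; RMA and Partek are named without versions, per the submitters' processing notes. The log base was read from the range (2.40 to 13.3). RMA as usually run equalises arrays, which removes a shift shared by all transcripts, and array signal compresses differences at both ends. Detection calls and batches are not given in the sources used here.

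Rows were named through the supplied platform annotation, and symbols were checked against RefSeq GRCm38.p6. The brightest of several single-symbol rows stood for a gene, giving 19938 genes. The 2 genotypes were fitted in R 4.3.3 using limma 3.58.1 (lmFit, eBayes, two-sided, Benjamini-Hochberg over all genes, no low-signal filter). Shared rows were tested in the same model over all 28853 probe sets, an addition made after seeing the annotation. The script was tested on simulated data. Alternatives covered normalization, variance estimation, array weights, low-signal filters, probe set choice, threshold, a replicate block and leaving out arrays. The members and gene lists were chosen with earlier results of these data known. Named in the text are all members, shared rows of the families, Atg7, Ifng, both Ifngr chains, Irf1, Irf9, the 2 genes with the smallest p of each list, and the 5 nearest profiles; other genes were named after their values were seen. The number of arrays limits the precision, with 3 per genotype. Figures used matplotlib 3.10.9 in Python 3.11.15.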

Additional observations from a re-analysis of the deposited data

How the results depend on the processing

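All member rows kept a positive difference under every alternative run, except Gbp5 without Apc+/- replicate 2 (-0.087, in a range up to 0.14 with 1 array left out). The count of members with their own row past the threshold (1 of 5) fell to 0 without variance moderation, where limma's linear model gave 0 genes over all (988 at an unadjusted p under 0.05, with 3 of the 5 members among them), and lay between 0 and 1 with 1 array left out. Over all genes the count of 22 ran from 2 (without Apc+/-Atg7-/- replicate 1, the male array) to 27 (without Apc+/-Atg7-/- replicate 2) in the same settings; it was 12 without Apc+/- replicate 1, 13 without Apc+/- replicate 2 and 12 without Apc+/-Atg7-/- replicate 3. The trend and robust options added 1 shared row (Irgm2 with Igtp) and 1 gene of the pathway lists (Usp18), and the pathway count lay between 0 and 1 with 1 array left out. The shared rows gave 0 calls in each of those 6 fits. The median difference over the 9 member rows, 0.49 with all arrays, ran from 0.39 to 0.55 with 1 array left out. Each shift from 0.49 was smaller than 0.16, the within-genotype SD of the rows' median between arrays. Deviations of same-numbered arrays correlated at 0.15, -0.10 and 0.17, and those of differently numbered arrays between -0.29 and 0.19. Whether the replicate numbers pair the samples is not settled by these values. With the replicate number as a block, 44 genes passed over all genes (22 higher and 22 lower), and Irgm1 kept its call (adjusted p = 0.0101). Fitted over every probe set, Irgm1 also passed (adjusted p = 0.0216). Arrays carry no read depth, and the lack of detection calls limits what can be said of dim rows such as Gbp5.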
